A study of Mus musculus with 9 samples.

Results

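The livers of tumour-bearing mice treated with TSU68 were set against the livers of mice without a tumour. This comparison uses 6 of the 9 arrays of the study, the 3 labelled T-TSU (replicates 2, 12 and 14) and the 3 labelled NT-Co (replicates 8, 10 and 11), chosen by their titles. Both the tumour and the drug differ between them. The third group, T-Co (replicates 9, 10 and 13), was tumour-bearing and given vehicle, and its values are given beside the others where they help. Array values below are deposited intensities in these replicate orders, and where a sentence gives sets of values without naming the groups, NT-Co comes first, T-TSU next and T-Co last. A value with ± in brackets is the log2 difference, T-TSU minus NT-Co, with its SE, and a further p beside the name of an array is the adjusted p without that array, given where leaving it out ends the call.

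In T-TSU and T-Co mice, TK-4, a human colon cancer, was implanted into the cecal wall, so the liver sampled was not the site of the graft. The hosts were BALB/c nu/nu males, which are athymic and lack mature T cells, aged 6 weeks at implantation. T-TSU mice received TSU68 by mouth at 400 mg/kg per day, split into 2 doses a day, and T-Co mice received vehicle. Treatment began on day 7 after implantation and lasted 1 week, after which the liver was removed. NT-Co mice had no tumour and received vehicle, and their strain, sex and age are not stated separately. No sham operation is described, so tumour and implantation cannot be told apart, and treated mice without a tumour are not analysed here. At what hour the livers were taken, and whether the mice had been fed, is not stated. The labels number the samples but do not say that each is a separate animal, so p-values measure only the spread between these samples.

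TSU68 is taken by mouth and blocks the kinase activity of receptors for VEGF, PDGF and FGF, which carry growth signals to blood vessels, pericytes and other stromal cells. The liver answers to signals from the whole body. A clock built on the activators ARNTL and CLOCK and on their repressors PER, CRY and NR1D sets the daily rhythm of many liver genes, while fasting hormones, glucocorticoids and cytokines such as IL-6 switch glucose production, fat metabolism and acute phase protein synthesis. Growth hormone pulses, which differ between male and female rodents, set the sex-biased liver genes.

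All arrays had been scaled to a common trimmed mean of 500.3 intensity units, and their medians ran from 107 to 119. The median within-group SD on the log2 scale was 0.22 in NT-Co, 0.24 in T-TSU and 0.28 in T-Co. The ratio of the 3' to the 5' control probe set for actin, a sign of RNA integrity, was 2.76, 2.26 and 3.14 in NT-Co and 2.16, 2.11 and 1.79 in T-TSU, with no overlap, while the same ratio for Gapdh averaged 0.765 ± 0.031 and 0.767 ± 0.075 (SD, n = 3 each). The part of this actin difference in the results below was not tested. Of 17 hepatocyte markers measured, 16 were not called, among them Alb, for albumin, at 36136, 36958 and 40756 in NT-Co and 34233, 37526 and 33922 in T-TSU. The remaining marker, Foxa3, a liver transcription factor, rose by a log2 difference of 0.90 ± 0.18 (SE; adjusted p = 0.0171, limma; 0.087 without T-TSU replicate 14).

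Of 22626 probe sets that were no array controls, 15838 passed a filter on dim signal and were tested with limma on log2 intensity. At an adjusted p under 0.05, 609 differed between T-TSU and NT-Co, which is 3.85% of those tested. Of these, 394 were higher in T-TSU (2.49%; 295 genes) and 215 were lower (1.36%; 164 genes), and 0 genes were called in both directions. The median log2 difference was 1.09 over the higher calls and -0.93 over the lower ones, and -0.00098 over all probe sets tested. Past 4-fold, 46 probe sets were higher and 19 lower. The T-TSU and NT-Co arrays did not overlap for any of the 609, against 24.2% of all probe sets tested, so absence of overlap alone is common here. Of probe sets with a mean intensity above 505.3, 6.89% were called, against 0.682% of those below 137. With 3 arrays a group the count was sensitive to single arrays: without T-TSU replicate 14 it was 287, without NT-Co replicate 11 it was 297, and without T-TSU replicate 12 and NT-Co replicate 8 it was 323 and 324, and with no trend of the variance on intensity it was 265.

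**Figure D1:**
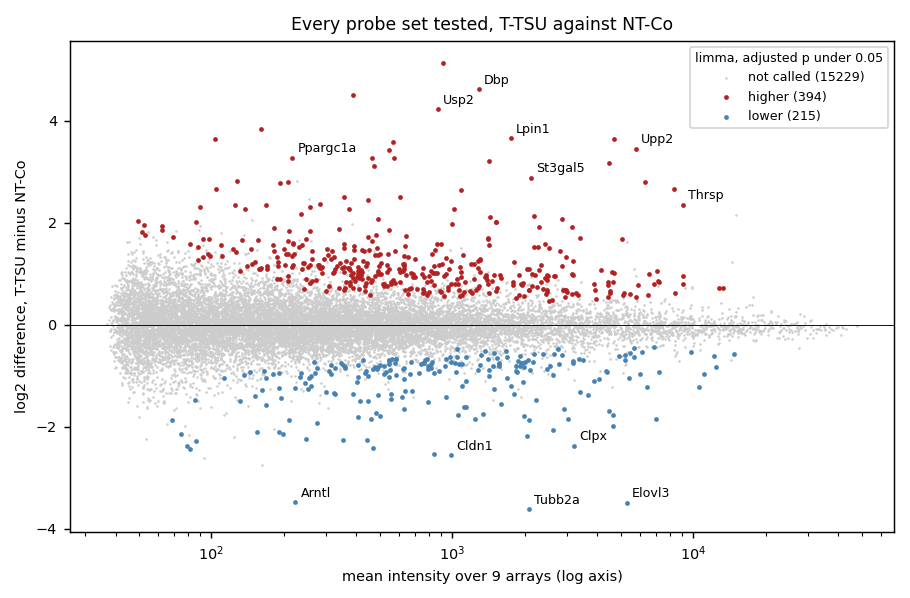
Each point is 1 of the 15838 probe sets tested, with its mean intensity over the 9 arrays on a log x axis and its log2 difference, T-TSU minus NT-Co, on the y axis. Red points (394) were higher and blue points (215) lower at an adjusted p under 0.05 by limma, and grey points were not called. Dbp, Usp2, Lpin1 and Upp2 stand at the top, and Tubb2a, Elovl3 and Arntl at the bottom.

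The largest rises were in Dbp, Usp2, Lpin1, Upp2, Rgs16, Fmo2, Ppargc1a and Clec2d, and the largest falls in Tubb2a, Elovl3, Arntl, Cldn1 and Angptl8. The differences of T-TSU and of T-Co from NT-Co share the NT-Co arrays, so they are set side by side and not compared.

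**Figure D2:**
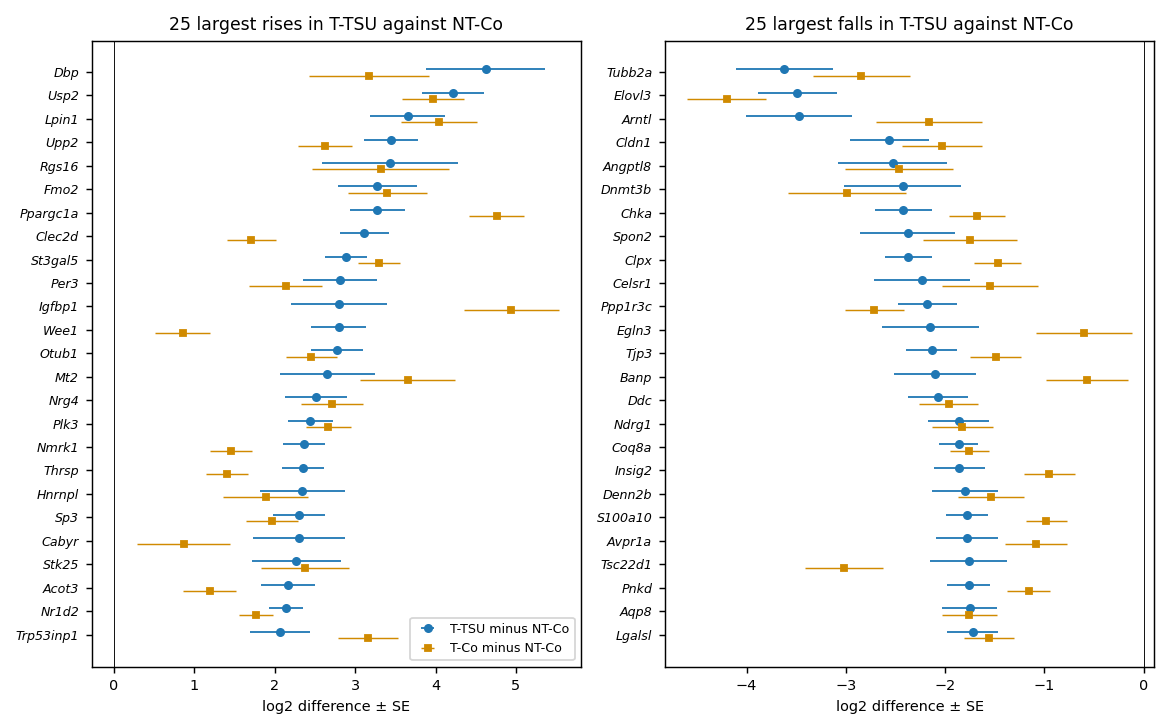
The 25 called genes with the largest rise (left) and the 25 with the largest fall (right) in T-TSU, each with its log2 difference from NT-Co and its SE from limma (blue circles), beside the T-Co difference from the same NT-Co arrays (orange squares). Dbp leads the rises at 4.62 and Tubb2a the falls at -3.62, and for Wee1 the circle at 2.80 lies far from the square at 0.86.

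Core clock transcripts differed between T-TSU and NT-Co livers. The hour of collection is not stated, so a change of the clock and a different hour cannot be told apart. The activators Arntl and Clock fell, while the repressors Per1, Per2, Per3, Cry2 and Nr1d2 rose. Of 16 genes listed as the clock loop, 13 were on the array and 12 passed the filter, of which 5 rose and 2 fell. With 1 probe set a gene, 3.64% of all genes tested were called, 2.07% higher and 1.57% lower. The median log2 difference of the 12 was 0.45, against -0.015 over all genes. Because the 2 arms of the loop moved in opposite directions, that median describes neither. T-Co differed from the same NT-Co arrays in 5 of the 12, where 6.36% of all genes were called. Between T-TSU and T-Co 0 of the 12 were called.

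Arntl, which encodes the activator BMAL1, read 503, 532 and 437 in NT-Co, 53.2, 15.7 and 54.1 in T-TSU and 58.1, 60.7 and 293 in T-Co. All 3 T-TSU arrays were far below NT-Co and below every T-Co array, at a log2 difference from NT-Co of -3.47 ± 0.53 (SE; adjusted p = 0.00371, limma). Clock, the partner of BMAL1, read 721, 620.4 and 628 in NT-Co and 161, 280.1 and 255 in T-TSU (-1.50 ± 0.29, adjusted p = 0.0136). In T-Co it read 490.2, 254 and 621, a range that overlaps that of each other group. Npas2, which can stand in for Clock, was below the filter on dim signal and not tested: it read 162, 51.7 and 94.7 in NT-Co and 3.84, 38.4 and 3.47 in T-TSU.

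Among the repressors, Per2 read 215, 279.9 and 200.2 in NT-Co and 491, 558 and 471 in T-TSU, with T-Co at 354, 251 and 313, overlapping NT-Co. The T-TSU arrays lay above all other arrays of this gene (1.11 ± 0.19, adjusted p = 0.00697), although the difference from T-Co itself did not pass (0.72, adjusted p = 0.207). Per3, another period gene, rose from 28.2, 44.6 and 7.95 to 289, 198 and 162 (2.81 ± 0.46, adjusted p = 0.00519). Per1, which glucocorticoids also induce, read 31.9, 149 and 97.2 and 288, 265 and 263 (1.69 ± 0.40, adjusted p = 0.0341). Cry2, a cryptochrome that binds the activators, read 162, 203 and 84.8 and 358, 485 and 311 (1.37 ± 0.34, adjusted p = 0.043; 0.158 without T-TSU replicate 12). For both Per1 and Cry2 the NT-Co arrays were widely spread but still below every T-TSU array. Cry1 did not follow Cry2, at 162, 252 and 134 and 125, 189 and 209 with overlapping groups (-0.05 ± 0.46, adjusted p = 0.976).

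Nr1d2, for the haem-binding repressor REV-ERB beta, gave one of the clearest separations, 583, 755 and 862 in NT-Co against 3805, 3124 and 2791 in T-TSU (2.14 ± 0.21, adjusted p = 0.000329). In T-Co Nr1d2 read 2454, 3336 and 1863, overlapping T-TSU. Its relative Nr1d1 read 37.7, 102 and 106 and 214, 108 and 101, with overlap, and was not called (0.76 ± 0.45, adjusted p = 0.448). Rora, an activator that competes for the same sites, and the casein kinases Csnk1d and Csnk1e, which phosphorylate PER, were within 0.14 of 0 on the log2 scale and not called, although a dimmer probe set of Rora rose (1.33 ± 0.31, adjusted p = 0.0356).

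**Figure D3:**
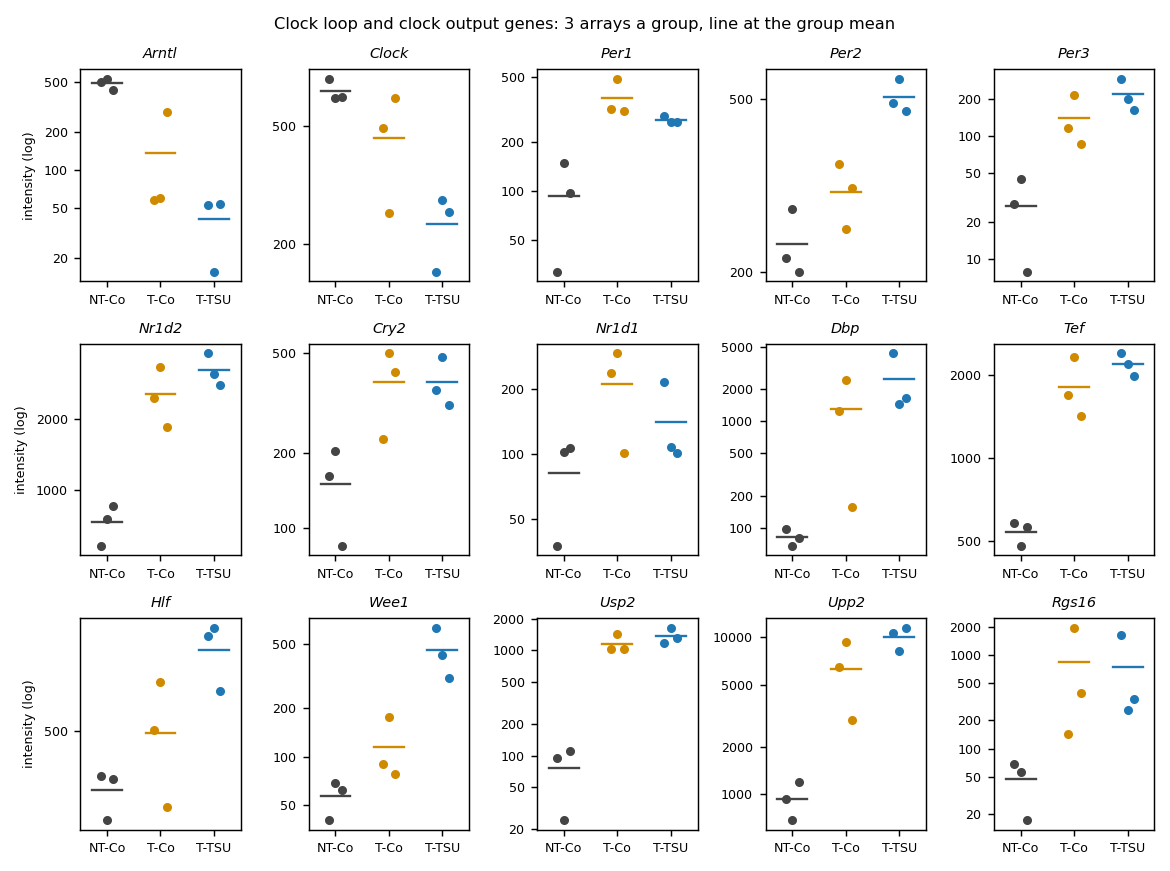
Deposited intensity of 15 clock loop and clock output genes on each of the 9 arrays (points, log y axis, scale set per gene) with the arithmetic group mean as a line. In T-TSU Arntl and Clock lie below all NT-Co arrays, and Per1, Per2, Per3, Nr1d2, Cry2 and the output genes lie above them, while the Nr1d1 points overlap.

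Genes that the clock drives changed in both directions, mostly upward. Of 17 clock output genes measured, 9 rose and 2 fell, and their median log2 difference was 0.94. T-Co differed from the same NT-Co arrays in 8 of the 17, with a median of 0.65. Between T-TSU and T-Co 0 of the 17 were called. The PAR bZip factors, which carry the rhythm to enzymes and transporters, all rose: Dbp, Tef and Hlf. Dbp read 97.4, 68.1 and 81.1 in NT-Co, 4343, 1466 and 1652 in T-TSU and 1263, 2465 and 158 in T-Co. Every T-TSU array was far above NT-Co while T-Co held 1 array near it, and the difference from NT-Co was 4.62 ± 0.74 (SE; adjusted p = 0.00498, limma). With a robust variance trend the adjusted p was 0.0603. A second probe set of Dbp gave 5.13.

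Tef read 579, 478 and 559 in NT-Co and 2396, 2194 and 1988 in T-TSU (2.01 ± 0.18, adjusted p = 0.000223). In T-Co Tef read 1692, 2328 and 1421, overlapping T-TSU. Hlf read 391, 307 and 386 and 843, 884 and 624 (1.09 ± 0.24, adjusted p = 0.0239; 0.103 without T-TSU replicate 12). In T-Co Hlf read 504, 657 and 329, overlapping NT-Co, and its difference from NT-Co was 0.40 (adjusted p = 0.354). None of these members overlapped between T-TSU and NT-Co, which held for all 609 probe sets called.

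Usp2, for a ubiquitin protease that acts on clock and membrane proteins, rose from 94.9, 24.5 and 111 to 1175, 1647 and 1308 (4.22 ± 0.39, adjusted p = 0.000226). The T-TSU and NT-Co arrays were far apart, with little spread within T-TSU. In T-Co Usp2 read 1024, 1427 and 1029, overlapping T-TSU. Upp2, for a liver uridine phosphorylase, read 926, 683 and 1191 and 10634, 8187 and 11572 (3.45 ± 0.34, adjusted p = 0.000329). In T-Co Upp2 read 6469, 9422 and 2957, overlapping T-TSU. Wee1, the kinase that restrains entry into mitosis, read 40.4, 68.8 and 61.8 in NT-Co, 89.4, 176 and 77.9 in T-Co, but 629, 425 and 308 in T-TSU. Here T-TSU stood apart from both other groups, by 2.80 ± 0.34 from NT-Co (adjusted p = 0.00112) and by 1.94 from T-Co, which did not pass (adjusted p = 0.0651).

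Rgs16, a brake on G protein signalling, read 69.0, 55.3 and 17.1 and 1658, 257 and 336, with 1 T-TSU array far above the others (3.43 ± 0.85, adjusted p = 0.0442). Gys2, for the liver glycogen synthase, rose by 1.08 ± 0.22 (adjusted p = 0.0151) and Tspan4, a tetraspanin, by 0.94 ± 0.19 (adjusted p = 0.0166; 0.0853 without T-TSU replicate 14). The 2 members that fell were Avpr1a, the vasopressin receptor of hepatocytes, from 1024, 717 and 779 to 384, 184 and 184 (-1.78 ± 0.31, adjusted p = 0.00744), and Tars, for threonyl-tRNA synthetase, by -1.21 ± 0.14 (adjusted p = 0.000697). The output genes Bhlhe40, Noct, Nfil3, Alas1, Pnpla2 and Cys1 did not pass, with log2 differences from -0.54 (Nfil3) to 0.85 (Noct). Among the clock calls, those of Clock, Per1, Cry2, Hlf, Tspan4, Gys2 and Rgs16 were lost without single arrays. Without NT-Co replicate 8, 5 of the output genes and 3 of the loop genes rose. Beside the values given above, the adjusted p reached 0.0622 for Clock (without NT-Co replicate 8), 0.107 for Per1 (without T-TSU replicate 14), 0.0806 for Gys2 (without T-TSU replicate 14) and 0.165 for Rgs16 (without NT-Co replicate 11).

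BMAL1 and CLOCK bind the E-box CACGTG, and promoter sequences of 10 of the 12 loop genes and 14 of the 17 output genes were found in RefSeq's GRCm38.p6 annotation, as 250 bases before to 50 after each start. CACGTG, which reads alike on both strands, lay in 2 of the 10 (Per1 and Cry1) and in 3 of the 14 (Tef, Tspan4 and Tars), against 8.09% of 27025 genes. Of the genes with a match, Per1, Tef and Tspan4 rose, Tars fell and Cry1 was not called, so these letters within this window stood in genes of either direction. The 250 bases before the start of Per1 (chr11:69098699-69098948, plus strand) and Tef (chr15:81802423-81802672, plus strand) are shown because both genes rose and hold the motif, with CACGTG in capitals.
Per1: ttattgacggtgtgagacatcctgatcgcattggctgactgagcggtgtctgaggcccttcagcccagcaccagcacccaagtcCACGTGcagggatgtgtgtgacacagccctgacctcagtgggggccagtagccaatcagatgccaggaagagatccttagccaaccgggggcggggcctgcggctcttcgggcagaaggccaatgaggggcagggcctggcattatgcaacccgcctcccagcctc
Tef: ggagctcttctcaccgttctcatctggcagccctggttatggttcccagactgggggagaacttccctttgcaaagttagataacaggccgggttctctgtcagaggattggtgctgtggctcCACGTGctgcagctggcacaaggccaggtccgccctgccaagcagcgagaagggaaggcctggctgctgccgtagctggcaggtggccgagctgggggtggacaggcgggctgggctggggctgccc

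Genes of the fasting liver rose as well. Of 26 genes of gluconeogenesis and fasting measured, 8 rose and 0 fell, and their median log2 difference was 0.38. T-Co differed from the same NT-Co arrays in 13 of them, with a median of 0.50, where 6.36% of all genes were called. Between T-TSU and T-Co 0 of the 26 were called, with a median of -0.19. The risers were the coactivator Ppargc1a, the phosphatidate phosphatase Lpin1, the transcription factor Cebpb, the alanine aminotransferase Gpt2, the glucose-6-phosphate transporter Slc37a4, the mitochondrial fatty acid gate Cpt1a, the rate-limiting gluconeogenic enzyme Pck1 and the IGF-binding protein Igfbp1. The other enzymes of glucose output did not rise with them: G6pc, for the last step, had a log2 difference of -0.79 ± 0.25 (adjusted p = 0.115) and Fbp1, for fructose bisphosphatase, -0.27 ± 0.12 (adjusted p = 0.294). A dimmer probe set of Foxo3, not called on the probe set counted, rose (0.97 ± 0.19, adjusted p = 0.0124).

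Ppargc1a read 5.65, 8.23 and 14.97 in NT-Co, near the floor of the scale, 111, 207 and 169 in T-TSU and 349, 682 and 398 in T-Co. T-TSU lay between the other groups with no overlap with either (3.27 ± 0.34 from NT-Co, adjusted p = 0.000497), and because NT-Co was near the pseudocount the size of this rise depends on it. Ppargc1a was called on 1 of its 5 probe sets, the one with the largest difference, and the lowest was at 0.59. Lpin1 read 183, 103 and 169.6 and 810.2, 3287 and 2767 (3.65 ± 0.47, adjusted p = 0.0016). Its relative Lpin2, counted with the lipid droplet genes, read 806, 629 and 897 and 2508, 3331 and 2949 (1.91 ± 0.31, adjusted p = 0.00498). Igfbp1 read 247, 267 and 1088 in NT-Co, 1609, 4807 and 3319 in T-TSU and 5907, 15972 and 23565 in T-Co. Every T-TSU array was above NT-Co and below T-Co, and the difference from NT-Co was 2.80 ± 0.59 (adjusted p = 0.0206).

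Pck1 read 8774, 7447 and 9114 and 12360, 14043 and 15329, a smaller rise of 0.72 ± 0.15 (adjusted p = 0.0194). Gpt2 (0.83 ± 0.15, adjusted p = 0.0101), Slc37a4 (0.59 ± 0.11, adjusted p = 0.011) and Cpt1a (1.07 ± 0.22, adjusted p = 0.0181) rose as well. Cpt1a was called on 1 of its 3 probe sets, the lowest at 0.32. Cebpb read 874, 1008 and 1479.7 and 2817, 3939 and 4173 (1.71 ± 0.29, adjusted p = 0.00617), and its relative Cebpd was not called (0.97 ± 0.30, adjusted p = 0.11). Neither the insulin receptor substrate Irs2 (1.29 ± 0.48, adjusted p = 0.178) nor the pyruvate dehydrogenase kinase Pdk4 (-1.28 ± 0.40, adjusted p = 0.109) passed, and the Pdk4 difference was below 0. Over the 26 genes, the median difference from the NT-Co mean was 0.71 on T-TSU replicate 12, 0.52 on replicate 14 and 0.094 on replicate 2. The calls of Igfbp1, Pck1, Cpt1a and Slc37a4 were lost without single arrays, with adjusted p reaching 0.0967 for Igfbp1 (without T-TSU replicate 12), 0.0945 for Pck1 (without T-TSU replicate 14), 0.0879 for Cpt1a (without T-TSU replicate 14) and 0.0577 for Slc37a4 (without NT-Co replicate 8).

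Of 27 genes of fatty acid oxidation and ketogenesis, 3 rose and 0 fell: Ppara, the nuclear receptor that controls the pathway, from 1309, 1213 and 1227 to 4489.5, 4005 and 3000.2 (1.59 ± 0.31, adjusted p = 0.0125), Cpt1a, and Acot3, a peroxisomal acyl-CoA thioesterase, from 69.2, 64.8 and 127 to 407, 477 and 332 (2.17 ± 0.33, adjusted p = 0.00371). The T-TSU arrays of Ppara were all above NT-Co, whereas T-Co read 1846, 3637 and 1181 and overlapped both groups, and the call was lost without T-TSU replicate 12 (adjusted p = 0.0553). Probe sets of the acyl-CoA thioesterase genes can share signal. The other 24 did not pass, and the list's median was 0.24. Of 17 genes of glycolysis and glycogen, 2 rose and 1 fell. Slc2a2, the glucose transporter of hepatocytes, rose with Gys2, by 0.61 ± 0.14 (adjusted p = 0.0291; 0.114 without NT-Co replicate 11), and Ppp1r3c, which brings phosphatase 1 to glycogen, fell from 4354, 4936 and 4009.8 to 765, 1069 and 1114 (-2.18 ± 0.30, adjusted p = 0.00202).

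Fat synthesis genes did not move together. Of 22 measured, 3 rose, 2 fell and the median was -0.19. Thrsp, a promoter of lipogenesis that thyroid hormone and carbohydrate induce, rose from 2143, 2858 and 4468 in NT-Co to 15355, 12130 and 19796 in T-TSU (2.35 ± 0.26, adjusted p = 0.000697), and its T-TSU arrays also lay above T-Co (9058, 5879.5 and 9594). Dgat2, for the last step of triglyceride synthesis, rose by 0.79 ± 0.16 (adjusted p = 0.0197; 0.0912 without T-TSU replicate 12) and the delta-6 desaturase Fads2 by 0.98 ± 0.21 (adjusted p = 0.0208; 0.0915 without T-TSU replicate 14). Elovl3, a fatty acid elongase, fell from 12422, 12757 and 16097 to 1332, 840.1 and 1579, next to T-Co at 1199, 1048 and 315 (-3.49 ± 0.40, adjusted p = 0.000738). Elovl1 fell by a smaller amount (-0.81 ± 0.17, adjusted p = 0.0173; 0.0821 without NT-Co replicate 11). The central enzymes Fasn (-0.63 ± 0.40, adjusted p = 0.487) and Scd1 (0.73 ± 0.36, adjusted p = 0.346) and the regulator Srebf1 (-0.52 ± 0.26, adjusted p = 0.349) did not pass. Scd1 was spread within T-TSU, at 22991, 6769 and 16422.

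Around the lipid droplet, 3 of 15 genes fell and Lpin2 rose. Plin2, the main droplet coat protein of hepatocytes, read 6293, 7233 and 6786 in NT-Co, 4328, 3148 and 3376 in T-TSU and 2963, 2668 and 2464 in T-Co, with T-TSU between the others (-0.91 ± 0.14, adjusted p = 0.00331). G0s2, the inhibitor of adipose triglyceride lipase, fell from 2043, 5665 and 2629.6 to 1253, 1067 and 883 (-1.56 ± 0.33, adjusted p = 0.0227), and its T-Co arrays were lower still at 394, 223 and 206. Angptl8, an insulin-induced regulator of lipoprotein lipase, fell from 699, 3353 and 1648 to 214, 346 and 252 (-2.53 ± 0.55, adjusted p = 0.0227). The NT-Co arrays of G0s2 and Angptl8 were widely spread, and their calls were lost without single arrays (adjusted p up to 0.103 and 0.0873, both without T-TSU replicate 14). Fitm1, which packages fat into droplets, read 678, 735 and 532 in T-TSU and 512, 604 and 566 in NT-Co, but 267, 60.0 and 39.3 in T-Co, and the T-TSU difference from T-Co (2.76, adjusted p = 0.0593) did not pass. Of 25 genes of cholesterol synthesis and uptake, 1 was called (4%, against 3.64% of all genes tested). Insig2, which holds the sterol sensor in the endoplasmic reticulum, fell from 12885, 10497 and 11180 to 2660.4, 3251 and 3661 (-1.86 ± 0.25, adjusted p = 0.00214).

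Glucocorticoid-responsive genes rose in part. Of 19 measured, 5 rose, 1 fell and the median was 0.72. T-Co differed from the same NT-Co arrays in 8 of them, with a median of 1.19, where 6.36% of all genes were called. Between T-TSU and T-Co 0 of the 19 were called, with a median of -0.48. The risers were Mt2, Fkbp5, Dusp1, Per1 and Pik3r1, and the gene that fell was Sgk1. Fkbp5, the chaperone that restrains the glucocorticoid receptor, read 509, 400 and 419 and 653, 2293 and 1911 (1.67 ± 0.37, adjusted p = 0.0263). Dusp1, a phosphatase that switches off MAP kinases, read 505, 555 and 536 and 879, 2556 and 1756 (1.56 ± 0.37, adjusted p = 0.0356). Pik3r1, the regulatory subunit of PI3 kinase, rose by 1.33 ± 0.20 (adjusted p = 0.0032). Sgk1, a salt- and hormone-induced kinase, read 871, 597 and 949 in NT-Co and 305, 227 and 333 in T-TSU (-1.45 ± 0.33, adjusted p = 0.0289), although glucocorticoids are known to induce it. The other 13, among them the classical target Tat, for tyrosine breakdown, were not called.

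T-TSU replicate 2 was the lowest T-TSU array for Fkbp5, Dusp1, Mt1 and Mt2. The median of the 19 genes was 0.30 on that array, 1.25 on replicate 12 and 0.61 on replicate 14. Without single arrays the call of Fkbp5 was lost with adjusted p reaching 0.123 (without T-TSU replicate 14), that of Dusp1 with 0.135 (without T-TSU replicate 12) and that of Sgk1 with 0.123 (without NT-Co replicate 11), and between 1 and 6 of the 19 rose over these fits.

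Metallothioneins bind zinc and copper and are induced by glucocorticoids, metals and cytokines. Mt2 read 2016, 808 and 799.6 in NT-Co and 2257, 13150 and 11185 in T-TSU (2.66 ± 0.59, adjusted p = 0.0261). Mt1 read 4880, 1920.5 and 1616 and 3636, 22647 and 16518, where replicate 2 fell within the NT-Co range, and it was not called (2.16 ± 0.57, adjusted p = 0.0581). Probe sets of both genes can share signal, and the Mt2 call was lost without 4 of the arrays (adjusted p up to 0.122, without T-TSU replicate 14). Slc39a14, a zinc importer that IL-6 induces, rose by 0.64 ± 0.13 (adjusted p = 0.0174; 0.0821 without NT-Co replicate 11), and the other 9 of 11 genes of this list were not called.

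The metal response cores TGCGCNC and TGCACNC, searched on both strands in the same 300-base windows, lay in 17.0% and 14.2% of 27025 genes and in 5 of 9 and 5 of 9 metallothionein and zinc transporter genes with a promoter. Mt2 is shown because it was the called gene of this list with a promoter and a match. The 250 bases before its start (chr8:94172368-94172617, plus strand) hold 3 matches in capitals, 1 of TGCGCNC, 1 of TGCACNC and 1 of TGCACNC read on the other strand.
Mt2: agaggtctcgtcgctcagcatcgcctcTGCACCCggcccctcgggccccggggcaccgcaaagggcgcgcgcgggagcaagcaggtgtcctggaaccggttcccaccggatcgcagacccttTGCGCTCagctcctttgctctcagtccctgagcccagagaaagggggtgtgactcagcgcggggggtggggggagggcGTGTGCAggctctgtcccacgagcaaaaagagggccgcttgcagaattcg

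Acute phase genes held few calls. Of 29 positive acute phase genes measured, 0 were called on their brightest probe set, although a second probe set of Saa4, a serum amyloid A gene, rose (0.95 ± 0.20, adjusted p = 0.0217), and their median log2 difference was 0.042, against -0.015 over all genes tested. T-Co differed from the same NT-Co arrays in 9 of them, with a median of 0.56, where 6.36% of all genes were called. None of the 29 was called between T-TSU and T-Co, where the median was -0.46. Saa2, a serum amyloid A gene, read 3116, 1460.4 and 764 in NT-Co, 1185, 9048 and 3189.6 in T-TSU and 4247, 6041 and 22284 in T-Co (1.10 ± 0.73 from NT-Co, adjusted p = 0.512), and probe sets of the Saa genes can share signal. Lcn2, for the iron-scavenging lipocalin 2, read 4674, 2579 and 2042, 1554, 10949 and 3523 and 8154, 9940 and 23048 (0.43 ± 0.58, adjusted p = 0.798). For both genes T-TSU replicate 12 was within the T-Co range. Replicate 2 was within the NT-Co range for Saa2 and below it for Lcn2. Serpina3n, a protease inhibitor, read 9259.8, 8335 and 7860.1, 6705, 8851 and 8134 and 12132, 13999 and 19835, with T-TSU overlapping NT-Co and below all T-Co arrays (-0.93 from T-Co, adjusted p = 0.07). The STAT motif, TTC and GAA with 3 bases between, lay in 7 of 22 acute phase genes with a promoter, against 9.55% of 27025 genes.

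Some genes linked to IL-6 did rise. Of 21 genes of IL-6 and STAT3 signalling measured, 4 rose and 0 fell. T-Co differed from the same NT-Co arrays in 7 of the 21, and 0 were called between T-TSU and T-Co. Stat3, the transcription factor of the pathway, read 1522, 1555 and 1358 in NT-Co, 3074, 2823 and 2738 in T-TSU and 2832, 4068 and 4041 in T-Co (0.96 ± 0.15, adjusted p = 0.00419). Il6ra, the IL-6 receptor chain, read 228, 176 and 174 and 503, 1081 and 682 (1.87 ± 0.30, adjusted p = 0.00498). Pim3, a kinase induced by STAT signalling, rose by 1.53 ± 0.20 (adjusted p = 0.00164) and Nfkbia, the inhibitor of NF-kappa-B, by 0.78 ± 0.17 (adjusted p = 0.0214; 0.0908 without NT-Co replicate 8). Stat3 was called on 1 of its 3 probe sets, the lowest at 0.07, and Nfkbia on 1 of 4, the lowest at 0.32. The cytokines Il6 and Tnf were below the filter and were not tested. Of 13 carrier and negative acute phase genes 0 were called, with a median of -0.04.

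Of 21 interferon response genes 1 was called on the probe set counted (4.76%, against 3.64% of all genes tested). Ifi47, an interferon-induced GTPase, fell from 1423, 1169 and 1282 to 650, 439 and 311 (-1.51 ± 0.26, adjusted p = 0.00689). A dimmer probe set of H2-K1, of the same list, rose (0.54 ± 0.13, adjusted p = 0.0394). Of 11 chemokine genes measured 0 were called. Cxcl1, a neutrophil attractant, read 1812, 354 and 276 in NT-Co and 792, 603 and 312 in T-TSU, with overlapping groups (-0.09 ± 0.67, adjusted p = 0.969).

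Markers of other liver cell types showed few calls, where 3.64% of all genes tested were called. Fewer cells of a type and less RNA per cell cannot be told apart in whole tissue. For Kupffer cells and macrophages 0 of 21 markers were called, but 18 of 21 differences were below 0 and the median was -0.24. Their summed intensity ran from 10935 to 15043 in NT-Co and from 6824 to 14045 in T-TSU. T-TSU replicate 2 was the low array, with a median of -0.89 against 0.15 on replicate 12 and -0.13 on replicate 14. Tyrobp, a signalling adaptor of myeloid cells, read 294, 533 and 345 and 126, 317 and 259 (-0.77 ± 0.32, adjusted p = 0.247), and Adgre1, for the macrophage antigen F4/80, 566, 427 and 548 and 342, 465 and 320.1 (-0.45 ± 0.20, adjusted p = 0.262).

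Neutrophil markers (0 of 10 called, median -0.19) included S100a8 at 204, 165 and 116 in NT-Co, 62.6, 238 and 189.8 in T-TSU and 310.1, 441 and 864 in T-Co. Its T-TSU and NT-Co arrays overlapped, and T-TSU lay below all T-Co arrays (-0.14 ± 0.45 from NT-Co, adjusted p = 0.93; -1.73 from T-Co, adjusted p = 0.201). Lymphocyte markers (0 of 8), endothelial markers (0 of 28, median 0.05), erythroid and platelet markers (0 of 9), pancreatic acinar markers (0 of 4) and adipocyte markers (0 of 4) had no calls on the probe set counted either, but a second probe set of the acinar gene Prss2, a trypsinogen, rose (1.75 ± 0.43, adjusted p = 0.043). At an unadjusted p under 0.05 the whole table held 2672 probe sets.

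Stellate and fibroblast markers were lower in 2 of 21. Col4a1, a chain of basement membrane collagen, read 629.8, 604 and 561 in NT-Co and 262, 412 and 287 in T-TSU (-0.91 ± 0.22, adjusted p = 0.0362). Sparc, a collagen-binding matrix protein, read 892, 806 and 721 and 459, 509 and 536 (-0.68 ± 0.16, adjusted p = 0.0344), while a second probe set of it gave 0.10. No T-TSU array reached NT-Co for either gene, but both calls were lost without single arrays (adjusted p up to 0.138 for Col4a1, without T-TSU replicate 14, and 0.147 for Sparc, without NT-Co replicate 8). Pdgfrb, the pericyte receptor that TSU68 inhibits, read 199, 193 and 204 and 149, 93.4 and 121, without overlap, and was not called (-0.70 ± 0.37, adjusted p = 0.382). Of 5 cholangiocyte markers measured, Tm4sf4 rose (1.17 ± 0.20, adjusted p = 0.00722), while the keratins Krt8 (-0.72 ± 0.22, adjusted p = 0.0976) and Krt18 (-0.68 ± 0.21, adjusted p = 0.0971), which hepatocytes also make, did not pass.

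None of the VEGF, PDGF and FGF receptor genes measured was called. Of 31 angiogenic ligands and receptor kinases measured, 1 was called (3.23%, against 3.64% of all genes tested), and their median was -0.03. A second probe set of the ligand Pdgfc fell (-1.28 ± 0.23, adjusted p = 0.00873). The called gene was Met, the hepatocyte growth factor receptor, which read 284, 306 and 232 in NT-Co and 455, 465 and 569 in T-TSU (0.84 ± 0.17, adjusted p = 0.018; 0.0917 without NT-Co replicate 11). Vegfa read 911, 516 and 885 and 979, 665 and 828 (0.12 ± 0.23, adjusted p = 0.862). Its main endothelial receptor Kdr read 245, 143 and 188 and 169, 157 and 143 (-0.25 ± 0.22, adjusted p = 0.656). The groups of both genes overlapped. Flt1, Flt4, Pdgfra, Fgfr1, Fgfr2 and Fgfr4 had log2 differences from -0.35 (Fgfr4) to 0.17 (Fgfr1), and none was called. Their SEs ran from 0.15 (Fgfr4) to 0.54 (Fgfr1), so small differences could not be detected with 3 arrays a group.

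Male-biased liver genes in T-TSU were mostly a little below NT-Co, with 4.17% called against 3.64% of all genes tested. Of 24 male-biased genes measured, 1 fell in T-TSU, Elovl3, and 10 were called in T-Co from the same NT-Co arrays. The median was -0.17 in T-TSU and -1.17 in T-Co. Between T-TSU and T-Co, 2 of the 24 were called, Nat8f5 and Hsd3b2. Hsd3b5, a male-specific steroid enzyme, read 7088, 9503 and 9556 in NT-Co, 8127, 1253 and 4919.6 in T-TSU and 350.5, 476 and 61.1 in T-Co. Replicate 2 stood within the NT-Co range, replicate 14 below it and replicate 12 well below, and the difference from NT-Co was not called (-1.22 ± 0.69, adjusted p = 0.422), nor was that from T-Co (4.01, adjusted p = 0.0593).

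Nat8f5, an N-acetyltransferase family gene, read 888, 753 and 1033, 778, 367 and 864 and 155, 206 and 130.1, and it was 1 of the genes that did pass between T-TSU and T-Co (1.91, adjusted p = 0.0453). That call did not hold under every setting. Slco1a1, a male-biased anion transporter, read 3341, 4868 and 4609 in NT-Co and 7173, 3762 and 6384 in T-TSU (0.40 ± 0.80, adjusted p = 0.874) against 1109, 2130.2 and 92.9 in T-Co. Replicate 12 again gave the lowest T-TSU value, here within the NT-Co range. Over the 24 genes its median was -0.54, against 0.037 on replicate 2 and -0.083 on replicate 14.

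Of 19 female-biased genes measured, 3 rose and 0 fell in T-TSU, with a median of 0.66, and the T-Co median was 1.08. The risers were Fmo2, a flavin monooxygenase, from 49.0, 147 and 38.6 to 426, 799.5 and 1059 (3.28 ± 0.49, adjusted p = 0.00331), the transcriptional regulator Trim24 from 250.2, 165 and 159 to 479, 519 and 500.1 (1.38 ± 0.19, adjusted p = 0.00231), and Acot3. Cyp17a1, a steroid hydroxylase, read 185, 93.7 and 82.6 in NT-Co, 126, 399 and 132 in T-TSU and 796, 1081 and 2647 in T-Co, with replicate 12 the highest T-TSU array (0.70 ± 0.49 from NT-Co, adjusted p = 0.539). The female-biased median by array was 0.88 on replicate 12, 0.35 on replicate 2 and 0.38 on replicate 14.

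Along the growth hormone and IGF axis, 2 of 25 rose and 1 fell, so 12% were called, against 3.64% of all genes tested. Igf1 itself read 9133, 10417 and 9564 and 9061, 9104 and 11830 and was not called (0.03 ± 0.13, adjusted p = 0.939). Igf2r, the receptor that clears IGF-II, read 315, 245 and 281 and 522, 577 and 559.6 (0.97 ± 0.15, adjusted p = 0.00488). The second riser was Igfbp1, and the gene that fell was Irs1, an insulin receptor substrate, from 1110.5, 1032 and 1138 to 589, 616 and 492 (-0.95 ± 0.18, adjusted p = 0.0116; 0.0603 without T-TSU replicate 14).

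**Figure D4:**
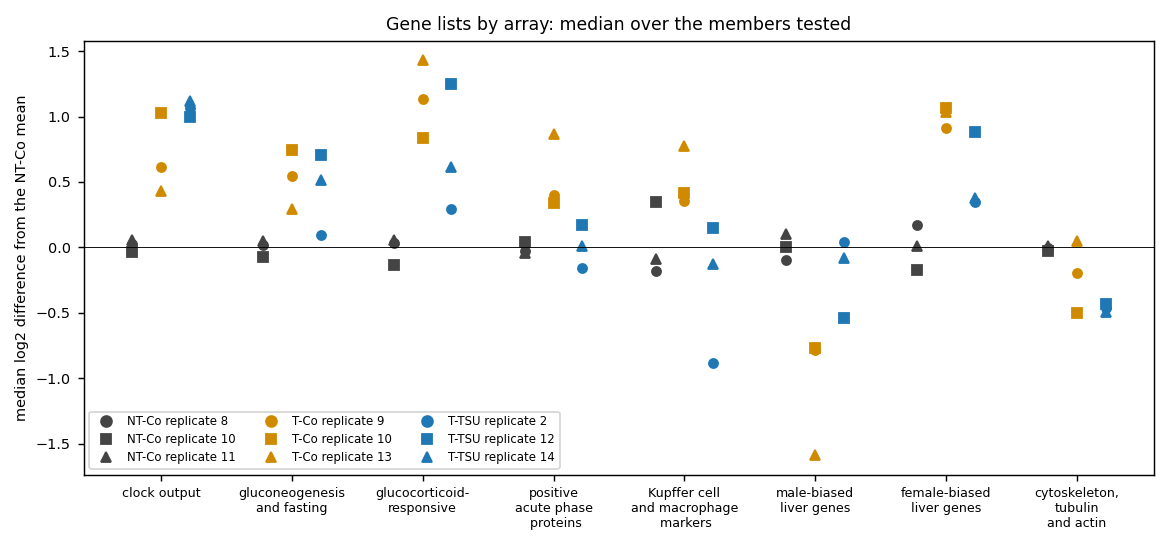
For 8 gene lists, the median log2 difference from the NT-Co mean over the members tested, on each of the 9 arrays (black NT-Co, orange T-Co, blue T-TSU; symbols mark replicates). The 3 T-TSU arrays lie close together for clock output (0.995 to 1.12) and cytoskeleton (-0.50 to -0.43), and apart for Kupffer cell markers, where replicate 2 is low, and for male-biased genes, where replicate 12 is low.

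Several tubulin genes fell in T-TSU livers. Of 23 cytoskeletal genes measured, 4 fell, all of them tubulins, and 1 rose, and the median was -0.52, with 19 differences below 0. Tubb2a, a beta tubulin, read 5977, 3570.5 and 5375 in NT-Co, 393, 434 and 343 in T-TSU and 985, 221 and 1362 in T-Co. The T-TSU arrays lay close together and far below NT-Co (-3.62 ± 0.49, adjusted p = 0.00202). Tubb4b read 3253, 3818 and 3206 and 978, 1608 and 1142 (-1.48 ± 0.25, adjusted p = 0.00617), on 1 of its 4 probe sets, of which another gave 0.27. Tuba4a (-1.21 ± 0.26, adjusted p = 0.0225; 0.106 without T-TSU replicate 14) and Tubb5 (-0.90 ± 0.21, adjusted p = 0.0333; 0.141 without NT-Co replicate 11) fell too. Probe sets of these near-identical tubulins can share signal. Pfn1, an actin-binding profilin, moved the other way, from 1292, 1057 and 906 to 3175, 3091 and 2998 (1.52 ± 0.15, adjusted p = 0.000329). A dimmer probe set of the actin gene Actb, of the same list, rose too (0.69 ± 0.13, adjusted p = 0.0109), while the brightest one was not called. The 3' to 5' ratio of the actin control probe sets also differed between these groups, and its part in this rise was not tested.

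Cldn1, Tjp3 and Celsr1 were among the 25 largest falls, and no list of junction genes was tested. Cldn1, a tight junction claudin of hepatocytes, read 2144, 1938 and 2018 in NT-Co and 524, 210 and 348 in T-TSU (-2.56 ± 0.40, adjusted p = 0.00419). Tjp3, a scaffold of tight junctions, read 392, 317 and 438 and 106, 70.7 and 67.8 (-2.14 ± 0.26, adjusted p = 0.001). Celsr1, a cadherin of planar polarity, fell from 505, 358 and 494 to 87.2, 111 and 72.3 (-2.24 ± 0.48, adjusted p = 0.0227; 0.0979 without T-TSU replicate 14). Absence of overlap with NT-Co was a condition for choosing these 3 genes.

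Among heat shock and endoplasmic reticulum chaperones, 1 of 31 was called (3.23%, against 3.64% of all genes tested). Of their differences 25 lay below 0, and the median was -0.30, against -0.015 over all genes tested. Calr, for the calcium-binding chaperone calreticulin, read 16412, 18025 and 19088 and 11782, 12228 and 11727 (-0.58 ± 0.10, adjusted p = 0.00672). Its partner Hsp90b1 had a difference of -0.53 ± 0.15 that did not pass (adjusted p = 0.0654). Of 24 cell cycle genes, Tk1, for the thymidine kinase of S phase, rose from 323, 247 and 326 to 794, 613 and 621 (1.16 ± 0.20, adjusted p = 0.00744) and lay above T-Co too (258, 384 and 376). Mcm7, a subunit of the replicative helicase, fell (-1.03 ± 0.20, adjusted p = 0.0119; 0.0594 without NT-Co replicate 11), and Dnmt3b, a DNA methyltransferase, fell from 236, 119.9 and 222 to 56.0, 6.06 and 43.3 (-2.43 ± 0.59, adjusted p = 0.0408; 0.163 without NT-Co replicate 11).

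Bile acid handling changed in 4 of 30 genes on the probe set counted (13.3%, against 3.64% of all genes tested). Dimmer probe sets of the synthetic enzyme Cyp7a1 (2.02 ± 0.45, adjusted p = 0.0266) and the transporter Slco1b2 (0.69 ± 0.16, adjusted p = 0.0378) rose. Abcb11, the bile salt export pump, read 9118, 9219.8 and 9654 in NT-Co, 5982, 4445 and 4489.5 in T-TSU and 7656, 6389 and 8205 in T-Co (-0.92 ± 0.14, adjusted p = 0.00326). Its T-TSU arrays lay below those of both other groups, and the difference from T-Co did not pass (-0.58, adjusted p = 0.175). The synthetic enzymes Hsd3b7 (-0.96 ± 0.17, adjusted p = 0.00788) and Acox2 (-0.61 ± 0.13, adjusted p = 0.0198; 0.0872 without T-TSU replicate 12) fell. Abcc3, an exporter on the blood side of the hepatocyte, rose (0.99 ± 0.19, adjusted p = 0.0119; 0.06 without NT-Co replicate 11).

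In the urea cycle and amino acid catabolism 3 of 37 genes (8.11%, against 3.64% of all genes tested) fell and 0 rose on the probe set counted. They were Gldc, of the glycine cleavage system, from 2030.3, 2395 and 1832 to 954, 659 and 1032 (-1.25 ± 0.22, adjusted p = 0.00826), Hal, the first enzyme of histidine breakdown (-0.71 ± 0.12, adjusted p = 0.00654), and Cbs, which condenses homocysteine with serine (-0.63 ± 0.12, adjusted p = 0.011; 0.0614 without NT-Co replicate 11). All 3 had T-TSU arrays below those of T-Co as well, at 1744, 1033 and 1718 for Gldc. A dimmer probe set of Uroc1, of the same list, rose (1.19 ± 0.21, adjusted p = 0.0074). Ddc, the decarboxylase of aromatic amino acids, was not in this list and fell from 5472, 5009.6 and 5089 to 1746, 841 and 1265 (-2.07 ± 0.30, adjusted p = 0.00299). The peroxisomal list held 3 falls among 30, Acox2, the 2-hydroxyacyl-CoA lyase Hacl1 (-0.96 ± 0.17, adjusted p = 0.0074) and the carnitine octanoyltransferase Crot (-1.23 ± 0.26, adjusted p = 0.0198; 0.0924 without T-TSU replicate 12).

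Mitochondrial genes were mostly near 0, with a respiratory chain median of 0.0053 over 32 genes and 2 calls (6.25%, against 3.64% of all genes tested). Sco2, which inserts copper into cytochrome c oxidase, read 2701, 2321 and 2767 in NT-Co, 1898, 1739.6 and 1829 in T-Co, but 1024, 1038 and 939.9 in T-TSU. The 3 groups were fully separate. The difference of Sco2 from NT-Co was -1.37 ± 0.12 (adjusted p = 0.000223) and also passed against T-Co (-0.86 ± 0.12, adjusted p = 0.0453). Its call against T-Co did not hold under every setting. Ndufa4, a small subunit of the chain, rose from 4015, 5014 and 4419 to 8196, 7425 and 8870.1 (0.87 ± 0.12, adjusted p = 0.00221). Outside the list, the mitochondrial protease Clpx fell from 6770, 6344 and 5242 to 1184, 1359 and 996 (-2.37 ± 0.24, adjusted p = 0.000329) and Coq8a, a factor of coenzyme Q synthesis, from 4036, 3705 and 4114 to 1462, 863 and 994 (-1.86 ± 0.20, adjusted p = 0.000504).

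Glycosphingolipid sialylation held one of the clearest rises. St3gal5, for the GM3 synthase, read 267, 326 and 426 in NT-Co, 1571, 3406 and 2983 in T-TSU and 2906, 3322 and 3871 in T-Co (2.89 ± 0.26, adjusted p = 0.000223). St3gal1, another sialyltransferase, fell from 758, 785 and 627 to 239, 325 and 265 (-1.37 ± 0.26, adjusted p = 0.0127; 0.0574 without T-TSU replicate 14), and the ceramide enzyme Degs1 fell (-0.61 ± 0.13, adjusted p = 0.0209; 0.11 without NT-Co replicate 11). These were the 3 calls among 18 genes on the probe set counted. A dimmer probe set of St3gal3, of the same list, rose (1.49 ± 0.24, adjusted p = 0.00474).

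Drug metabolism lists were called at 4.76%, 6.25% and 9.09% in the order below, on 1 or 2 genes each, against 3.64% of all genes tested. Of 21 targets of AhR, CAR and PXR, the receptors that sense foreign compounds, 1 rose: Abcb1a, an efflux pump, from 37.0, 61.8 and 55.3 to 109, 170.1 and 147 (1.34 ± 0.31, adjusted p = 0.0333; 0.131 without T-TSU replicate 12). The marker cytochromes were not called: Cyp1a1 differed by -0.16 ± 0.29 (adjusted p = 0.855), Cyp1a2 by 0.16 ± 0.14 (adjusted p = 0.637), Cyp2b10 by -0.12 ± 0.57 (adjusted p = 0.947) and Cyp3a11 by 0.03 ± 0.10 (adjusted p = 0.932). Cyp2b10 varied widely within T-TSU, at 475, 2768 and 1134, which leaves a wide error. Of 32 NRF2 and glutathione genes, Abcc3 and Gsr, for glutathione reductase (0.72 ± 0.16, adjusted p = 0.0228; 0.0926 without NT-Co replicate 8), rose. A dimmer probe set of Gclc, of the same list, fell (-0.73 ± 0.16, adjusted p = 0.026). Of 22 carboxylesterases and conjugating enzymes, Ugt3a2 (0.59 ± 0.14, adjusted p = 0.0314; 0.134 without NT-Co replicate 8) and Sult1d1 (1.04 ± 0.26, adjusted p = 0.046; 0.172 without NT-Co replicate 11) rose.

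Other gene groups held up to 3 calls each, at shares from 0% to 10.5%, against 3.64% of all genes tested. Of 31 genes listed as nuclear receptors 3 rose and 0 fell, with a median of 0.29 that was alike on the 3 T-TSU arrays (0.34, 0.26 and 0.30). They were the receptors Nr1d2 and Ppara and the coactivator Ppargc1a, which is no receptor itself. Of 31 immediate early and stress genes 2 rose and 1 fell, and of 17 p53 targets Trp53inp1, which promotes autophagy and cell death, rose from 540.3, 418 and 776 to 1350.5, 3578 and 2777 (2.07 ± 0.37, adjusted p = 0.00901). Of 33 proteasome subunits 1 rose, Psmb2 (1.11 ± 0.18, adjusted p = 0.00471), and 2 fell, Psmd1 (-0.75 ± 0.12, adjusted p = 0.00488) and Psma1 (-0.73 ± 0.14, adjusted p = 0.0121; 0.056 without T-TSU replicate 12). Dimmer probe sets of the proteasome gene Psmd4 (-0.52 ± 0.13, adjusted p = 0.0426) and the nuclear receptor gene Rxra (0.76 ± 0.18, adjusted p = 0.0362) were called too. On the probe set counted, no member was called among 33 complement and coagulation genes, 23 apolipoprotein genes, 30 cytosolic ribosomal proteins or 26 lysosomal enzymes. Of 19 ATF4 targets 1 rose and 1 fell, of 23 iron and haem genes 1 rose, and of 22 mitochondrial carriers 1 rose.

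Several large differences were in genes of other roles. Among the rises, Clec2d, a lectin-like ligand of a natural killer cell receptor, read 124, 75.0 and 109 in NT-Co, 391, 519 and 204 in T-Co, but 907, 769.7 and 1157 in T-TSU (3.11 ± 0.31, adjusted p = 0.000329). Nrg4, a growth factor of the EGF family, rose from 111, 39.5 and 76.9 to 304, 524 and 523 (2.51 ± 0.38, adjusted p = 0.00367). The stress-induced kinase Plk3 rose from 96.1, 87.4 and 101 to 348, 795 and 598 (2.44 ± 0.28, adjusted p = 0.000727). Nmrk1, which phosphorylates nicotinamide riboside on the way to NAD, rose from 114, 58.5 and 103 to 466, 428 and 580 (2.36 ± 0.26, adjusted p = 0.000697).

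Otub1, a deubiquitinase, read 34.8, 23.3 and 55.9 and 287, 304 and 291 on the called probe set (2.78 ± 0.32, adjusted p = 0.000755), but another probe set of the gene gave -0.31. Agreement between probe sets could be checked for 286 called genes with 2 or more tested: in 223 all of them had the same sign, and in 70 at least 2 were called. The lists count the brightest probe set of a gene, and 15 members not called on it had another probe set called, 12 higher and 3 lower.

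Among the falls, Chka, for the choline kinase of phosphatidylcholine synthesis, read 1076, 826 and 890.2 and 149, 190 and 162 (-2.42 ± 0.29, adjusted p = 0.000862). S100a10, a partner of annexin A2, read 3174, 3193 and 3492 in NT-Co, 2163, 1134 and 1859.5 in T-Co, but 1108, 950.2 and 811 in T-TSU (-1.78 ± 0.21, adjusted p = 0.000814). Aqp8, a water channel of the bile canaliculus, fell from 2329, 2359 and 2818 to 1245, 612 and 519 (-1.75 ± 0.28, adjusted p = 0.00448). Ndrg1, a stress-responsive gene, fell from 497, 359 and 368 to 60.1, 156 and 121 (-1.86 ± 0.31, adjusted p = 0.0061), and Egln3, an oxygen-sensing prolyl hydroxylase, from 132, 127 and 104 to 10.1, 11.1 and 62.1 (-2.15 ± 0.49, adjusted p = 0.0286; 0.107 without NT-Co replicate 8). Both are known targets of the hypoxia-inducible factors, and no list of such targets was tested. Tsc22d1, a leucine zipper regulator, fell from 9484, 7299 and 11722 to 5868, 1858 and 1888 (-1.76 ± 0.39, adjusted p = 0.026; 0.122 without T-TSU replicate 14).

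**Figure D5:**
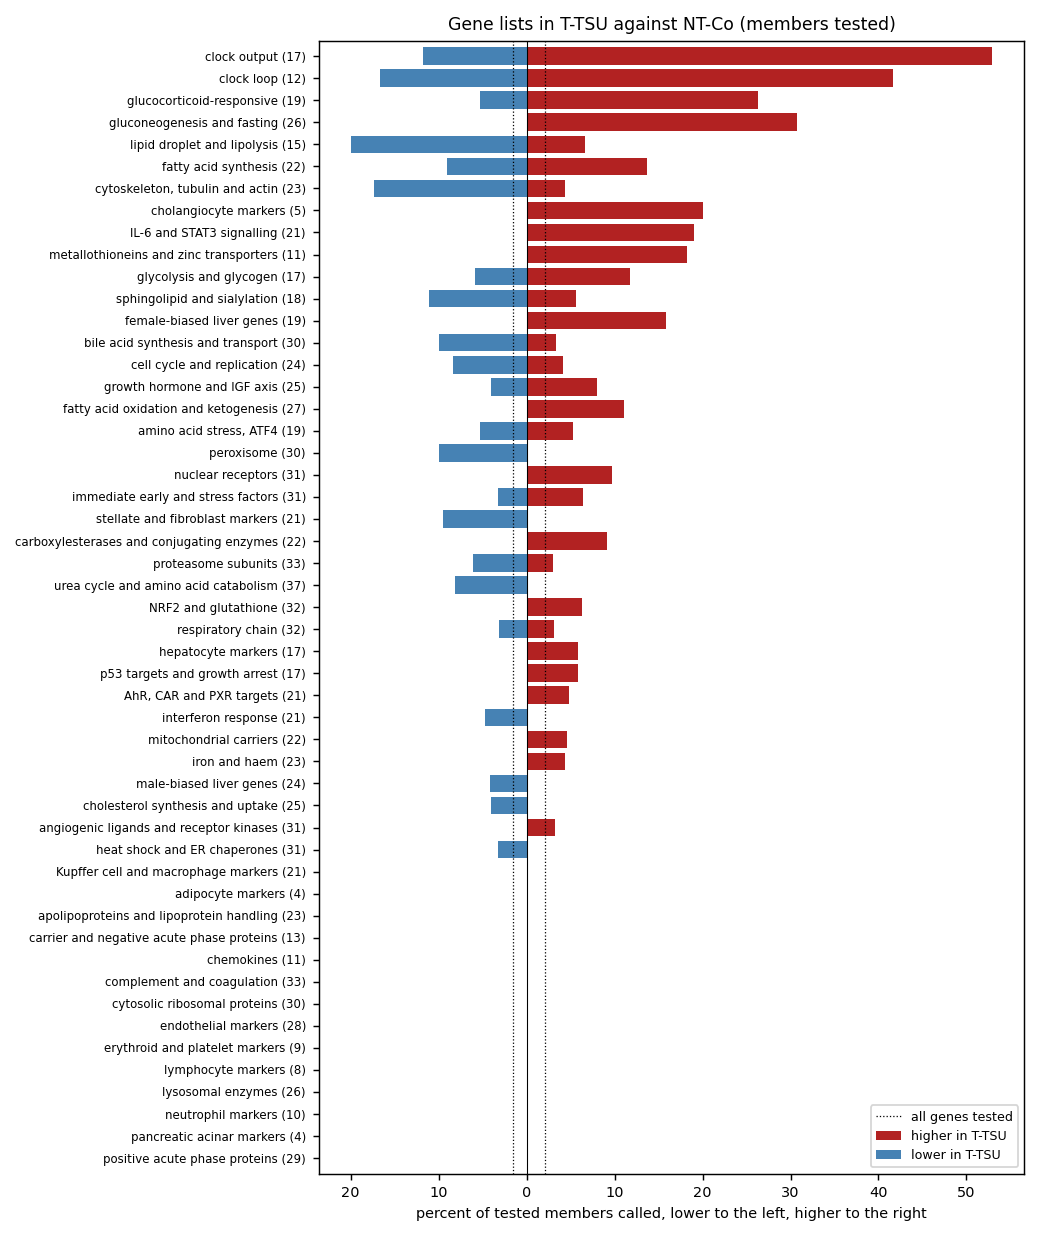
Percent of tested members called higher (red, to the right) or lower (blue, to the left) in T-TSU than in NT-Co for the 51 gene lists, with the number tested in brackets. Dotted lines mark the 2.07% higher and 1.57% lower among all 9225 genes tested with 1 probe set a gene, and clock output, with 9 of 17 higher, has the longest red bar.

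Against T-Co, which differs from T-TSU by the drug, few levels passed the test. Of 15838 probe sets, 8 were called (0.0505%), 6 of them higher in T-TSU. Those with 1 gene were Ces1d with 2 probe sets, Hagh, Hsd3b2, Marveld1, Nat8f5 and Sco2, and all had the same adjusted p of 0.0453. The count against T-Co changed with the processing and with single arrays, and some settings gave no calls. Ces1d, a carboxylesterase, read 7599, 6773 and 8104 in T-TSU, 5772, 5134 and 6598 in NT-Co and 4136, 4292 and 3334 in T-Co, so that T-TSU was above both (0.94 ± 0.14 from T-Co; 0.36 ± 0.14 from NT-Co, adjusted p = 0.183). Hsd3b2, a steroid dehydrogenase gene, read 1079, 708 and 867, 906, 813 and 842 and 368, 372 and 254, with T-TSU within the NT-Co range (1.36 ± 0.19 from T-Co; -0.03 from NT-Co, adjusted p = 0.96). At an unadjusted p under 0.05, 1658 probe sets differed between T-TSU and T-Co, and T-Co differed from NT-Co in 1036 (6.54%).

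Of the 459 genes called between T-TSU and NT-Co, 94 had all 3 T-TSU arrays outside the ranges of both other groups on the same side. Every call already lay outside the NT-Co range, so only the T-Co part of this condition was open. The share over all genes tested was not counted. By size of the difference from NT-Co, the 94 were led by Arntl, Clec2d, Wee1, Clpx, Nmrk1, Thrsp, Cabyr, Egln3, Banp and S100a10. Of these 10, none passed the test against T-Co, with adjusted p from 0.0651 (Wee1) to 0.408 (Arntl and Cabyr). The calls of Cabyr and Banp against NT-Co were lost without single arrays (adjusted p up to 0.175 for Cabyr, without T-TSU replicate 14, and 0.0655 for Banp, without NT-Co replicate 10).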

How the data were processed

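Liver RNA was measured on 9 single-colour oligonucleotide arrays, 3 each of NT-Co, T-Co and T-TSU. The authors deposited linear intensity values, 1 per probe set and array. The values have a common trimmed mean per array (2% removed at each end), and no source used here names the software that summarised and scaled them.

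From these, log2(intensity + 7.92) was computed, with the 10th percentile over non-control values as pseudocount, so fold changes of dim genes are understated. Probe sets whose mean log2 level lay under the 30th percentile, at an intensity of 36.2, were left out (6788), which left 15838. limma 3.58.1 (R 4.3.3) fitted group means to the 9 arrays together, with 6 residual degrees of freedom and a trend of variance on intensity. Tests were two-sided, p-values were adjusted by Benjamini-Hochberg over the 15838, and 0.05 was the threshold. The number of arrays and the dimness of many probe sets limit the precision. The procedure was tested on simulated data for this comparison, with 200 of 15838 probe sets changed: among 2-fold changes 47.8% were called with the right sign, and among 4-fold changes 85%.

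Symbols came from the platform annotation, updated through RefSeq: 20380 of 22626 probe sets had 1 gene, 691 several and 1555 none. A called probe set of highest mean stood for a gene among the largest differences, and the brightest tested probe set stood for a gene in the 51 lists. Named genes were the 25 largest rises and falls without overlap, up to 5 called members of each list by p (and the smallest p up to 3 where fewer were called), a fixed set of further genes, and the 10 largest differences outside the ranges of both other groups. Other members are named to account for a list's calls. Lists and genes were chosen with earlier results of these data known. Motifs were searched in RefSeq promoters. Alternatives were other pseudocounts, filters, normalizations and variance settings, a fit on both groups alone and leaving out each array. T-TSU and NT-Co share no replicate number, so no pairing was tested.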

Additional observations from a re-analysis of the deposited data

How the results depend on the processing

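Of 121 calls of named genes and list members between T-TSU and NT-Co, 53 held under every alternative and with each array left out, 2 held but were left out by the stricter filter on dim signal, 57 were lost without at least 1 array, 64 were lost under another setting (63 of them with no trend of the variance on intensity), and 0 reversed. Against the 609 probe sets called, no trend gave 265 (189 higher and 76 lower, against 394 and 215), and leaving out each array gave 287 to 793, with 198 to 480 higher and 86 to 313 lower. For probe sets lower in T-TSU than in NT-Co, a fit of these groups alone gave 364. Of the 8 called against T-Co, a pseudocount of 32 gave 25, the robust trend 14, quantile normalization 1, and no filter, median centring and no trend 0 each, while leaving out each array gave 0 to 59, the highest without T-TSU replicate 12. The cause of these differences was not tested, beyond the fewer arrays of a fit without 1. Other pseudocounts, filters and normalizations kept the count against NT-Co within 1.5 times. No paired analysis was possible because T-TSU and NT-Co share no replicate numbers. Dim probe sets limit the calls, since signal near the pseudocount gives wide errors.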
